A study of Mus musculus with 22 samples.

Results

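Fibroblast growth factor (FGF) signalling was followed through 10 genes: the receptors Fgfr1, Fgfr2, Fgfr3 and Fgfr4, the ligands Fgf2 and Fgf18, and the feedback genes Spry1, Spry2, Spry4 and Dusp6. They were taken by exact symbol, and each matched 1 row of the 34866 rows of the culture tables and 1 row of the 23911 rows of the cartilage table (40756 rows in either). The study deleted Dnmt1, the maintenance DNA methyltransferase, in mice with Prrx1-Cre, a transgene active in limb bud mesenchyme and therefore in chondrocytes and in other cells derived from it. Mutant cultures carried Prrx1-Cre;Dnmt1 flox/flox and are called cKO, and control cultures carried Dnmt1 flox with no Cre named. Primary chondrocytes of knee articular cartilage, from mice at postnatal days 3 to 5, were sequenced untreated (day 0, 3 control and 3 cKO cultures) or after 3 days of BMP2 at 100 ng/µl as labelled (day 3, 4 and 4). Cartilage taken at postnatal day 5 and treated with collagenase to remove connective tissue gave 4 flox and 4 cKO libraries, 2 male and 2 female in each genotype. The labels number the libraries as biological replicates without naming animals or litters, so the p-values measure the spread between these libraries.

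FGF ligands bind receptor tyrosine kinases together with heparan sulfate, and the receptors signal mainly through the Ras-ERK cascade. In the growth plate FGFR3 restrains chondrocyte proliferation and its activating mutations cause achondroplasia, while FGF18 is a ligand made around cartilage that acts on it. Sprouty proteins dampen signalling from the receptors to ERK, and DUSP6 removes the activating phosphates from ERK. These feedback genes are themselves transcribed in response to ERK signalling, so their RNA is often read as a record of pathway output.

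Total counts were 41749546 to 51741669 per day 0 library, 14434320 to 18918905 per day 3 library and 1100198 to 1888896 per cartilage library, and 3 counts, taken here as the detection floor, correspond to at most 0.0719, 0.208 and 2.73 CPM (counts scaled by library total). Dnmt1 RNA was lower in the cKO in all settings, at 151 ± 6.61 against 27.8 ± 3.09 CPM at day 0 (SD, n = 3 and 3), 70.8 ± 8.63 against 26.6 ± 11.8 at day 3 (n = 4 and 4) and 42.5 ± 6.18 against 13.2 ± 1.09 in cartilage (n = 4 and 4). On the alternative estimated counts of the same cartilage libraries the difference was smaller, at 52.9 ± 7.60 against 30.6 ± 3.30 CPM. Chondrocyte markers (12 genes) had a summed CPM of 134357 to 142314 in the controls and 47450 to 58025 in the mutants at day 0, 90556 to 111999 and 1274 to 16888 at day 3, and 64951 to 97425 and 30106 to 59289 in cartilage. The sum of 14 skeletal muscle markers was 8.10 to 9.38 and 55.1 to 61.5 CPM at day 0, and 1.42 to 2.11 and 131 to 1624 at day 3. At day 0, 6 of them in controls and 5 in mutants were at or below the floor in every library. Myf5 and Pax7 were so in every culture. In cartilage 10 of the 14 were present, with sums of 12.8 to 15.8 and 57.1 to 88.2 CPM. Of these, 8 in controls and 7 in mutants were at or below the floor in every library, and 2 of 2 tested were higher. For fibroblast, perichondrium and tendon markers (10 genes) the sums were 4990 to 7306 CPM in the controls and 2928 to 3566 in the mutants at day 0, 11810 to 13638 and 13734 to 14894 at day 3, and 47942 to 89324 and 25259 to 56331 in cartilage. At day 3, 3 of its 9 tested genes were higher and 1 lower, with a median log2 fold change of -0.21. Col1a1 was 4370 ± 583 and 7448 ± 1118 CPM there. Col1a2 was 4418 ± 588 and 3618 ± 403 CPM and did not pass the test. Day 3 cKO replicate 4 stood apart: its chondrocyte sum was 1274 CPM against 11844 to 16888 in the other cKO cultures, its muscle sum 131 against 978 to 1624, and day 3 results are given with it and, where stated, without it. Hypertrophic chondrocyte markers (8 genes) summed to 1414 to 1445 CPM in the controls and 811 to 858 in the mutants at day 0, 408 to 718 and 1376 to 3217 at day 3, and 985 to 1926 and 242 to 1160 in cartilage. The 3217 at day 3 was replicate 4, and the other cKO cultures held 1376 to 1910. This list was split at day 3, with 4 genes higher and 3 lower of 8 tested. Osteoblast markers (5 genes) summed to 139 to 156 CPM in the controls and 209.7 to 391 in the mutants at day 0, 188 to 444 and 2334 to 3924 at day 3, and 414 to 771 and 58.0 to 974 in cartilage. In cartilage the osteoclast markers stood at 126 to 457 against 58.8 to 119 CPM and the blood and immune markers at 191 to 978 against 26.0 to 420.2. Of these 2 lists, 3 of 3 and 4 of 5 tested genes were lower in edgeR, and 3 of 3 and 0 of 5 in DESeq2. Of the hypertrophic markers, 6 of 8 were lower in cartilage in edgeR and 3 of 8 in DESeq2. In bulk RNA, fewer chondrocytes and less RNA per chondrocyte cannot be told apart, and the part of these marker changes in the FGF results was not tested. The cartilage libraries were sequenced in 2 pools, 1 with the 4 flox and 1 with the 4 cKO libraries, so pool and genotype cannot be told apart there.

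At day 0 the mutant cultures held less RNA of Fgfr3 and Fgfr4, more of Fgf2 and of all 4 feedback genes, and small changes of Fgfr1 and Fgfr2. When the day 0 genotypes were compared in 1 fit with the day 3 cultures, the calls on Fgfr3, Spry1, Spry2 and Dusp6 were made again and those on Fgfr4 (adjusted p = 0.100), Fgf2 (0.352), Spry4 (0.208), Fgfr1 (0.0567) and Fgfr2 (0.533) were lost. After 3 days of BMP2 the losses of Fgfr3 and Fgfr4 and the gains of Spry1, Spry2 and Dusp6 passed the test again, whereas in cartilage tissue Spry4 alone passed it, in the opposite direction. Of the 10 genes, 6 rose and 3 fell at day 0, where 64.5% of all genes tested passed the same threshold (an adjusted p under 0.05 from edgeR's quasi-likelihood test), 33.0% higher and 31.6% lower. The values of 9 genes did not overlap between genotypes there, as was so for 70.3% of all genes. At day 3, 3 rose and 2 fell among the 9 that passed the filter on low counts, beside 25.5% of all genes higher and 22.6% lower (48.1% called), and 5 did not overlap, beside 47.9%. In cartilage 0 rose and 1 fell among the 9 that passed it, beside 3.15% of all genes higher and 3.04% lower (6.19% called). The share of members called at day 3 was close to the background, so that count is no result about these genes.

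**Figure D1:**
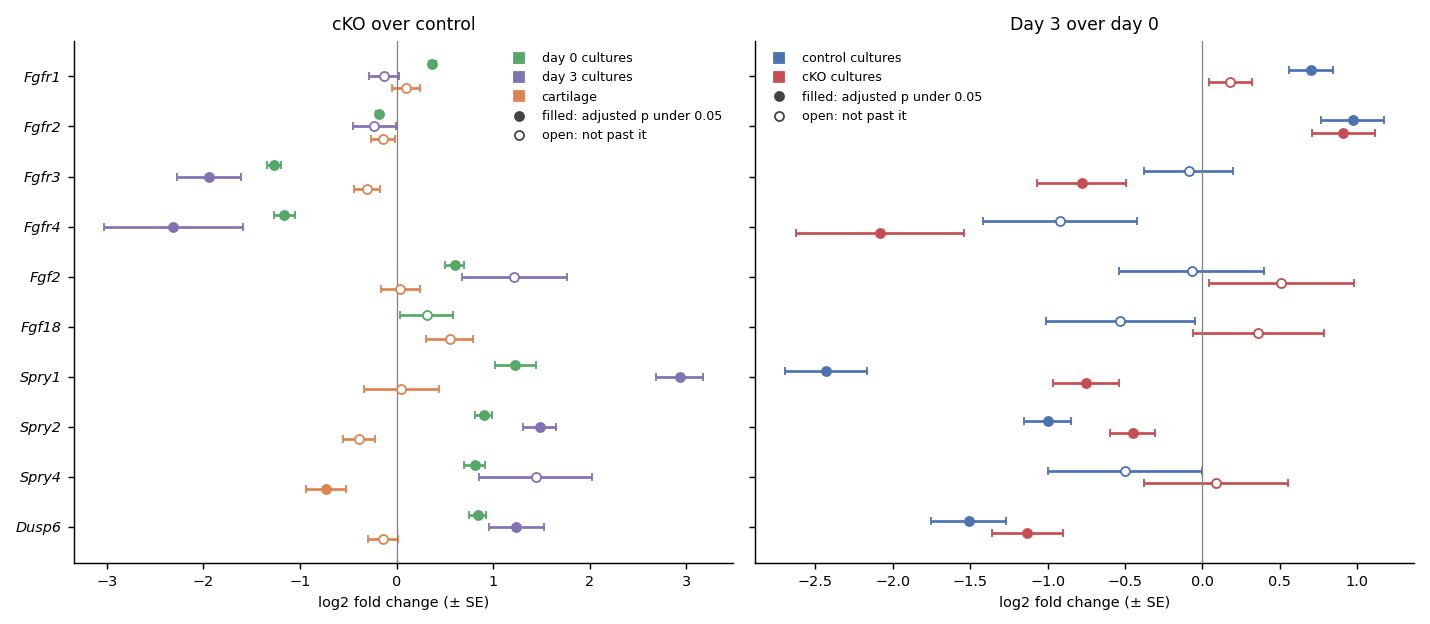
Log2 fold changes (x axis, ± SE) of the 10 genes (rows) for cKO over control in the day 0 cultures, day 3 cultures and cartilage (left) and for day 3 over day 0 in control and in cKO cultures (right); filled points passed an adjusted p of 0.05 and open points did not, and genes under the filter on low counts are not drawn. Fgfr3 and Fgfr4 lie left of 0 and Spry1, Spry2 and Dusp6 right of 0 in both culture comparisons, while the cartilage points lie between -0.73 and 0.55.

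Fgfr3, the receptor that restrains growth plate chondrocytes, lies at chr5:33721724-33737068 (GRCm38.p6, plus strand). Its level was 939, 938 and 976 CPM in the 3 control cultures and 349, 425 and 409.7 in the 3 cKO cultures at day 0. The groups did not overlap, and the level was 2.41-fold lower in the cKO (log2 fold change -1.27, SE 0.0690, adjusted p = 6.11e-07). At day 3 the controls held 1275, 886, 679 and 985 CPM and the cKO cultures 306, 261, 314 and 113, the last in replicate 4. Every mutant culture again lay below every control, by 3.84-fold (log2 -1.94, SE 0.328, adjusted p = 0.00160), and without replicate 4 the log2 fold change was -1.71 (adjusted p = 7.10e-05). In cartilage the level was 182, 211, 172 and 151 CPM in controls and 162, 124, 139 and 147 in cKO. These groups overlapped, and the change did not pass the test (log2 -0.31, 95% interval -0.58 to -0.05, adjusted p = 0.191). The interval excludes a loss of the size seen in the cultures, although the libraries are of another kind and the tissue and culture effects were not tested against each other. The 250 bases before the annotated Fgfr3 start (chr5:33721474-33721723, RefSeq on GRCm38.p6, plus strand) are shown because methylation, the mark that Dnmt1 maintains, falls on CpG dinucleotides, which are in capitals.
Fgfr3: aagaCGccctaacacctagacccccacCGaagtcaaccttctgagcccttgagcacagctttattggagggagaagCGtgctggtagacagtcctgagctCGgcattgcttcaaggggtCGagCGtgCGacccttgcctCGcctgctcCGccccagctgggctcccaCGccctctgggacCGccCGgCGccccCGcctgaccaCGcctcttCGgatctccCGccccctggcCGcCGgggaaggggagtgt
This window holds 19 CpG, and a second annotated start (window chr5:33722056-33722305) has 24, against a median of 6 (quartiles 2 to 16) over 32817 promoter windows of the same length. Methylation itself was not measured in these files.

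Fgfr4, a receptor better known from liver and muscle than from cartilage, lies at chr13:55152818-55168759 (plus strand). It was read at 31.5, 28.8 and 32.1 CPM in control and 11.5, 13.8 and 16 in cKO cultures at day 0. This 2.23-fold difference left no overlap (log2 -1.16, SE 0.104, adjusted p = 1.20e-05). By day 3 control values were 23.6, 17.1, 12.9 and 16 CPM, and the cKO values 5.65, 3.94, 4.31 and 0. Replicate 4 had no count among its 17445242, which allows up to 0.172 CPM. The groups stayed apart (log2 -2.31, SE 0.716, adjusted p = 0.0265; log2 -1.91, adjusted p = 8.12e-05 without replicate 4), but the call was lost in 4 of 8 fits that left out 1 culture (control replicates 1, 2 and 4 and cKO replicate 2, adjusted p up to 0.0679) and with DESeq2 (adjusted p = 0.0602). In cartilage Fgfr4 was counted 4 to 14 times per control and 4 to 6 times per cKO library and did not pass the filter on low counts.

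Fgfr1 (chr8:25518759-25575718, plus strand), the receptor most often linked to mesenchymal and hypertrophic cells, rose slightly at day 0. Its values were 153, 144 and 141 CPM in controls and 186, 192 and 187 in cKO, without overlap (1.29-fold, log2 0.37, SE 0.0357, adjusted p = 1.79e-05). The day 3 ranges were 195 to 327 in controls and 208 to 266 CPM in cKO, with the mutant values inside the control range (log2 -0.13, 95% interval -0.44 to 0.17, adjusted p = 0.512). Cartilage gave 383 to 439 CPM in controls and 326 to 516 in cKO, where the cKO spread took in all controls (log2 0.10, adjusted p = 0.730). Fgfr2 (chr7:130162451-130266808, minus strand), the receptor of perichondrial and osteogenic cells, moved the other way at day 0, from 268, 276 and 272 CPM to 234, 241 and 244 (log2 -0.18, SE 0.0300, adjusted p = 5.70e-04). The 3 mutant values lay below the 3 controls, by 1.13-fold. At day 3 Fgfr2 stood at 521 to 633 CPM in controls and at 589, 565, 519 and 271 in the cKO, the low value again in replicate 4 (log2 -0.23, adjusted p = 0.430; -0.03, adjusted p = 0.771 without it). Its cartilage ranges, 90.8 to 108 and 83.1 to 91.8 CPM, overlapped (log2 -0.14, adjusted p = 0.561). Exons annotated to Fgfr2 overlap those of Ctbp2 on the same strand, and whether the counting used strand is not given in the sources used here.

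**Figure D2:**
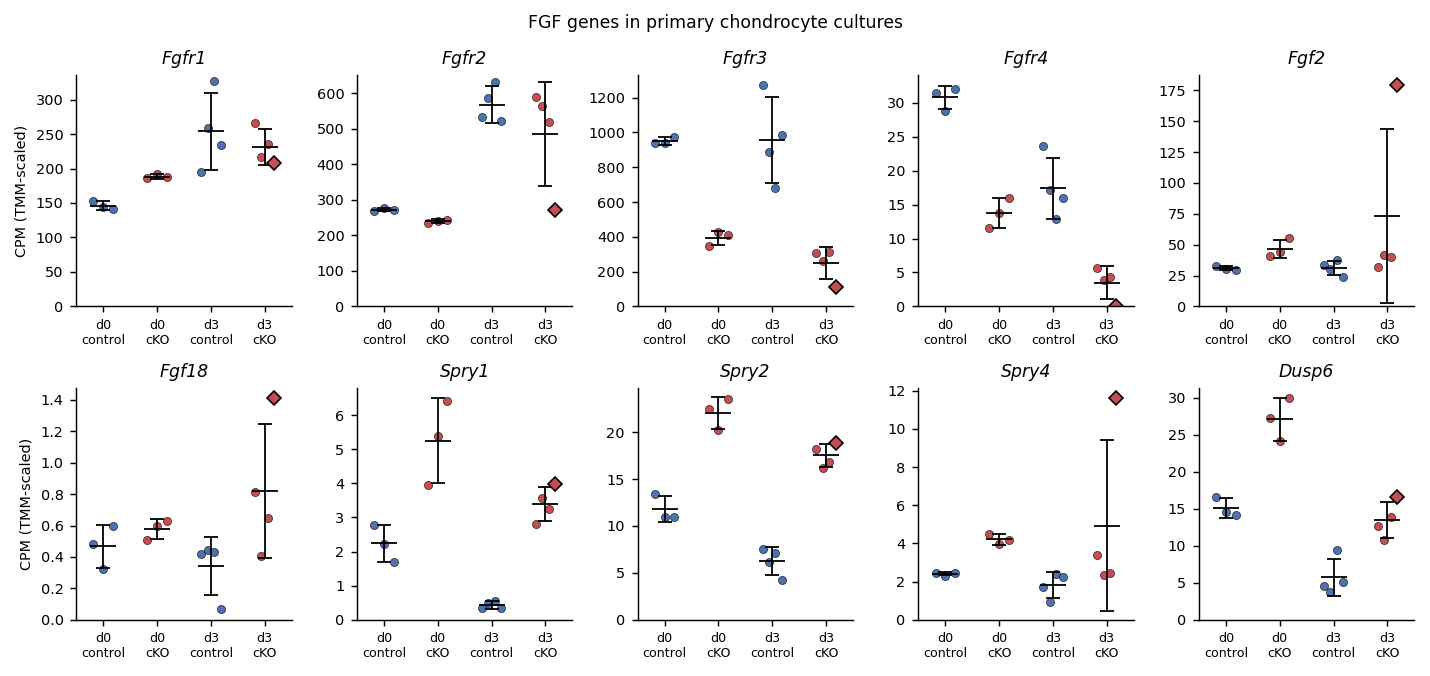
Level of each gene (y axis, TMM-scaled CPM, linear from 0) in every culture; points are cultures (blue control, red cKO), the diamond is day 3 cKO replicate 4, and bars are mean ± SD (n = 3 per group at day 0, d0, and 4 at day 3, d3), each day scaled on its own. Fgfr3 and Fgfr4 separate the genotypes at both days, and in Fgf2 and Spry4 the diamond lies at 179 and 11.6 CPM, above all other cultures.

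Per kilobase of annotated exon, Fgfr3 was the most abundant of the 10 genes in control cultures, at 133 ± 3.06 CPM per kb at day 0 and 134 ± 34.6 at day 3. Fgfr2 (26.3 ± 0.382 and 55.1 ± 4.98) and Fgfr1 (14.8 ± 0.623 and 25.7 ± 5.65) followed, with no overlap between neighbours. In cKO cultures at day 0 the same order held, at 55.1 ± 5.63, 23.2 ± 0.474 and 19.1 ± 0.309 CPM per kb. In day 3 cKO cultures the order was Fgfr2 (47.1 ± 14.1), Fgfr3 (34.7 ± 13.0) and Fgfr1 (23.4 ± 2.65), and each overlapped its neighbour. Fgfr4 held 8.70 and 3.88 CPM per kb in control and cKO cultures at day 0 and 4.91 and 0.981 at day 3, so that in the cKO it lay under Spry2, Dusp6 and Fgf2. Those 3 genes lay between 1.82 and 10.8 CPM per kb in the group means, and Spry1, Spry4 and Fgf18 between 0.150 and 1.81. Spry2 and Dusp6 overlapped in control cultures at day 0, and Spry4 and Fgf18 overlapped there and in control cultures at day 3. The length used is the union of all annotated exons of a gene, 9875 bases for Fgfr1, 10328 for Fgfr2, 7158 for Fgfr3 and 3542 for Fgfr4. Which transcripts the cultures made was not measured, and the order with other lengths was not tested.

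As a share of the 4 receptors per kilobase, Fgfr3 made up 72.7% ± 0.528 of receptor RNA in control and 54.3% ± 2.0 in cKO cultures at day 0 (SD, n = 3 and 3). The share was 60.2% ± 8.63 and 31.8% ± 4.91 at day 3 (n = 4 and 4), and the highest cKO culture, at 36.8%, lay below the lowest control, at 49.2%. Fgfr1 took 8.08% and 18.9% at day 0 and 12.1% and 23.4% at day 3, and Fgfr2 took 14.4% and 22.9%, then 25.5% and 44.0%. In replicate 4 of the day 3 cKO, Fgfr3 held 25.1% and Fgfr1 33.3%. For cartilage, where reads come from the 3′ ends and are not scaled by length, Fgfr1 held 59.1% ± 2.97 and 64.6% ± 4.93 of receptor counts and Fgfr3 25.9% ± 2.67 and 21.4% ± 3.38, with overlap between genotypes for both. These shares restate the levels above and were not tested.

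**Figure D3:**
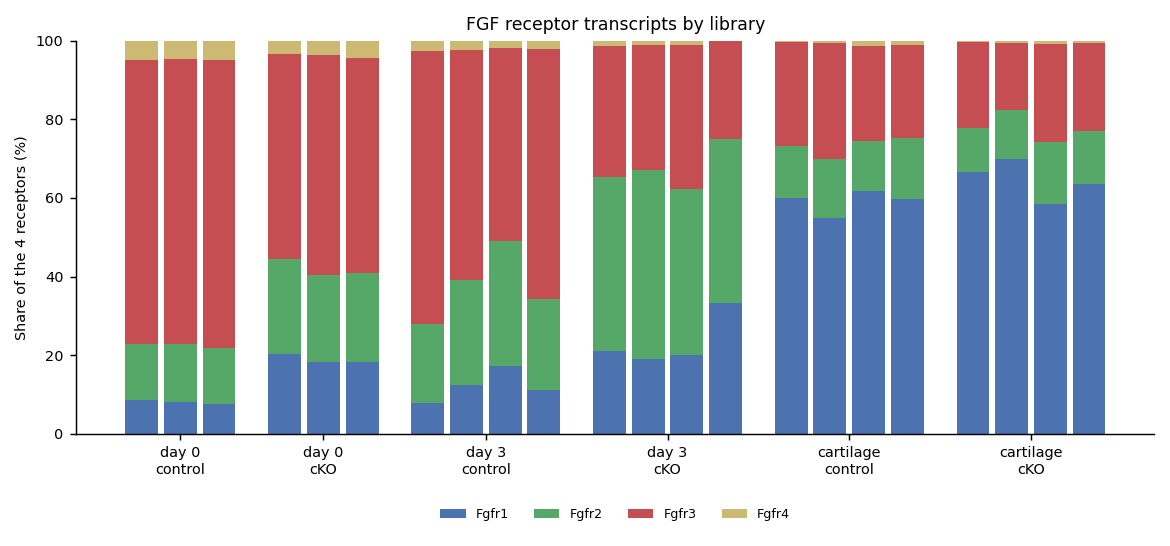
Share of the 4 FGF receptors (y axis, percent; bars sum to 100) in each of the 22 libraries (1 bar each, replicates in numerical order), from CPM per kilobase of exon in cultures and from counts, not scaled by length, in cartilage, so cultures and cartilage are not to be compared. The Fgfr3 segment is 72.3 to 73.3% in day 0 control and 25.1 to 36.8% in day 3 cKO cultures.

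Each receptor was set beside the other genes across the 14 cultures by the root mean square difference of log2 CPM, with every gene centred on its own mean. Fgfr3 was followed most closely by Krt87 (0.200), a hair keratin whose reads close relatives could share, Elovl6 (0.214), a fatty acid elongase, and Nrbp2 (0.215), while Fgfr3 itself had an SD of 1.02 over the same cultures. Fgfr4 was followed by Acan (0.318), the main cartilage proteoglycan, Ncmap (0.351) and Xylt1 (0.359), a xylosyltransferase that starts proteoglycan chains, beside an SD of 1.62. The low end of its log2 range of 6.09 is day 3 cKO replicate 4, which had 0 counts and whose value is set by the added 0.5 CPM. How far that culture decides the genes nearest to Fgfr4 was not tested. The nearest genes to Fgfr1 (SD 0.309) were Hyal2 (0.111), Zfp882 (0.137) and Ltbp3 (0.142), and to Fgfr2 (SD 0.551) Mindy4 (0.103), Cand2 (0.141) and Stat5a (0.145). The 14 points share genotype and day, so likeness over them describes those groups.

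Fgf2 (chr3:37348477-37410106, plus strand), a ligand stored in the pericellular matrix of cartilage, was read at 32.6, 30.1 and 29.7 CPM in control and 40.9, 44.2 and 55 in cKO cultures at day 0. All mutant cultures exceeded all controls, by 1.52-fold (log2 0.60, SE 0.0995, adjusted p = 5.68e-04). After 3 days of BMP2 the controls held 33.9, 30.3, 37.2 and 24 CPM and the cKO cultures 32.2, 41.5, 39.9 and 179. A single culture, replicate 4, carried most of this difference, which did not pass the test with it (log2 1.22, SE 0.541, adjusted p = 0.0935) or without it (log2 0.27, adjusted p = 0.139), and passed it in the 14-culture fit (log2 1.19, adjusted p = 0.0341). Fgf2 shares exon sequence with Nudt6 on the opposite strand, which stood at 0.674 CPM in replicate 4 and at 0.562 to 2.57 in the 14 cultures. In cartilage Fgf2 was 27.8 to 44.9 CPM in controls and 27.6 to 43.7 in cKO (log2 0.04, 95% interval -0.36 to 0.44, adjusted p = 0.930).

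Fgf18 (chr11:33116970-33147400, minus strand), made mainly by perichondrium and osteoblasts, was read from few counts in cultures. It was counted 16 to 34 times per library at day 0 (0.325 to 0.598 CPM in control and 0.507 to 0.631 in cKO cultures, log2 0.31, SE 0.278, adjusted p = 0.352). At day 3 it was counted 1 to 8 times per control and 8 to 23 times per cKO culture and did not pass the filter on low counts. In cartilage the level was 18.8, 45.2, 35.8 and 27.8 CPM in controls and 52.1, 68.2, 36.6 and 31.9 in cKO. The mutant values reached higher but overlapped the controls, and the change did not pass the test (log2 0.55, 95% interval 0.07 to 1.03, adjusted p = 0.202). Tissue and culture libraries were made by different methods and scaled apart, so the higher reading in tissue is set beside the cultures only as values.

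Spry1 (chr3:37639947-37644599, plus strand), an inhibitor of receptor signalling to Ras and ERK, showed the largest day 3 difference among the 9 genes tested. At day 0 it stood at 2.79, 2.23 and 1.70 CPM in control and 3.94, 5.39 and 6.42 in cKO cultures. That 2.34-fold rise left no overlap (log2 1.23, SE 0.215, adjusted p = 8.23e-04). At day 3 the controls held 0.351, 0.502, 0.558 and 0.338 CPM, from 5 to 9 counts each, and the cKO cultures 2.80, 3.58, 3.24 and 3.98. The difference was 7.60-fold (log2 2.93, SE 0.245, adjusted p = 4.57e-05) and the log2 fold change was 2.84 without replicate 4. In cartilage, from 8 to 41 counts, the values were 6.75, 17.1, 11.9 and 21.1 CPM in controls and 6.72, 21.0, 24.1 and 8.61 in cKO. Both groups spanned the same range (log2 0.05, 95% interval -0.72 to 0.82, adjusted p = 0.951), and the interval is wide in both directions.

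Spry2 (chr14:105891947-105896819, minus strand), a second Sprouty inhibitor, was 13.4, 11 and 11 CPM in control and 22.5, 20.2 and 23.5 in cKO cultures at day 0. The rise was 1.87-fold without overlap (log2 0.90, SE 0.0902, adjusted p = 2.28e-05). The day 3 values were 7.59, 6.19, 7.13 and 4.26 in controls and 18.2, 16.2, 16.8 and 18.9 CPM in cKO, 2.79-fold apart (log2 1.48, SE 0.173, adjusted p = 2.47e-04), and the log2 fold change was 1.44 without replicate 4. Cartilage read far higher, at 498, 407, 558 and 458 CPM in controls and 407, 475, 265 and 339 in cKO. There the mutant values tended lower with overlap, and the change did not pass the test (log2 -0.39, 95% interval -0.72 to -0.06, adjusted p = 0.184).

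Spry4 (chr18:38586247-38601347, minus strand), the third Sprouty gene measured, was 2.43, 2.31 and 2.46 CPM in control and 4.51, 3.96 and 4.17 in cKO cultures at day 0. The mutant cultures lay 1.75-fold higher with no overlap (log2 0.81, SE 0.108, adjusted p = 1.44e-04). At day 3 the controls held 1.69, 0.947, 2.42 and 2.23 CPM and the cKO 3.38, 2.32, 2.43 and 11.6, the last in replicate 4. The groups overlapped and the test was not passed (log2 1.44, SE 0.583, adjusted p = 0.0712; log2 0.57, adjusted p = 0.157 without replicate 4), but was passed with DESeq2 (log2 1.45, adjusted p = 0.0292) and in the 14-culture fit (log2 1.41, adjusted p = 0.0212). In cartilage, the order was the opposite: 33.0, 29.9, 28.4 and 27.3 CPM in controls and 16, 16.6, 24.1 and 14.6 in cKO. Every cKO library lay below every control, by 1.66-fold (log2 -0.73, SE 0.208, adjusted p = 0.0498), a separation that 13.5% of all genes showed. The call rested at the threshold and was lost in 7 of 8 fits that left out 1 library (all but cKO replicate 3, adjusted p up to 0.137), with DESeq2 (adjusted p = 0.182) and on the estimated counts (adjusted p = 0.0562).

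Dusp6 (chr10:99263231-99267489, plus strand), the ERK phosphatase, was 16.6, 14.5 and 14.2 CPM in control and 27.2, 24.1 and 29.9 in cKO cultures at day 0. It rose 1.79-fold without overlap (log2 0.84, SE 0.0878, adjusted p = 3.06e-05). At day 3 the values were 4.57, 3.68, 9.42 and 5.14 in controls and 12.7, 10.8, 13.9 and 16.5 CPM in cKO. All mutant cultures again exceeded all controls, including control replicate 3 at 9.42 (2.36-fold, log2 1.24, SE 0.286, adjusted p = 0.00743; log2 1.12, adjusted p = 0.00744 without cKO replicate 4). In cartilage Dusp6 was 67.5 to 91.3 CPM in controls and 57.9 to 84.8 in cKO, with overlap (log2 -0.14, 95% interval -0.44 to 0.16, adjusted p = 0.645).

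The promoters of the 3 feedback genes that rose at both days are shown with CpG in capitals, as the 250 bases before each start (RefSeq on GRCm38.p6): Spry1 at chr3:37639697-37639946 (plus strand), Spry2 at chr14:105896820-105897069 (minus strand) and Dusp6 at chr10:99262981-99263230 (plus strand).
Spry1: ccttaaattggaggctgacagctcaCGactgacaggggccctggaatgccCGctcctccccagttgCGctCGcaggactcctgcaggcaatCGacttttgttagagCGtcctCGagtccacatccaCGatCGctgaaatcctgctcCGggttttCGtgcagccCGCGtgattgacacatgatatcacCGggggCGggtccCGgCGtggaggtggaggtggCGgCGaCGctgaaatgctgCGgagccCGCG
Spry2: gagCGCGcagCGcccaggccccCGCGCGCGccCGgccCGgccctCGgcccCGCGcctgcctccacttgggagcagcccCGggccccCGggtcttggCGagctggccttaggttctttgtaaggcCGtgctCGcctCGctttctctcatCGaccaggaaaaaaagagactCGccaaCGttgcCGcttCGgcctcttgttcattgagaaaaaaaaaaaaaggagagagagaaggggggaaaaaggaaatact
Dusp6: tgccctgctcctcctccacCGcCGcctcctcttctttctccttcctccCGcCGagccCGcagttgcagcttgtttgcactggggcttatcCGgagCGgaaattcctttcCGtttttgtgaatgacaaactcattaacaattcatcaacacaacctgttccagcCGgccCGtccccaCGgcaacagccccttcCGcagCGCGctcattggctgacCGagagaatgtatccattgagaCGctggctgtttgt
They hold 23, 23 and 16 CpG, at or above the upper quartile of 16 over all windows. The Fgfr3 windows, whose gene fell, hold 19 and 24. Fgf18 has 37, Fgf2 20 and Fgfr4 15, and Fgfr2 has 2. The promoter source held no window for Fgfr1 or Spry4, and CpG number was not tested against the direction of change. The letters CCGGAAGT (the binding motif of ETS factors, effectors of ERK), TGACTCA (AP-1), TGACGTCA (the cAMP response element) and TATAAA were looked for on both strands. None of the 9 windows (8 genes) holds any of them as spelled, against 2.88%, 4.46%, 1.55% and 12.4% of all windows. An absent match says only that these letters are not in the window.

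**Figure D4:**
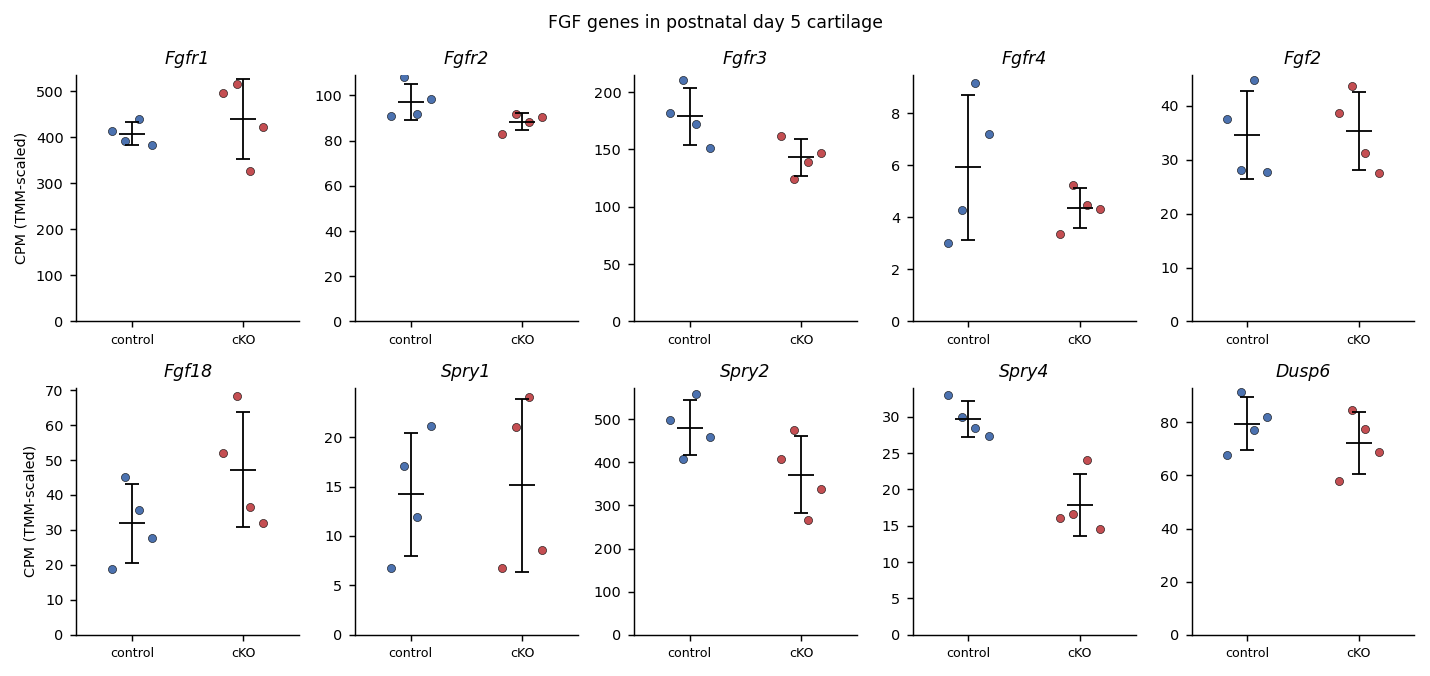
Level of each gene (y axis, TMM-scaled CPM, linear from 0) in the 8 cartilage libraries; points are libraries (blue control, red cKO) and bars are mean ± SD (n = 4 per group). Spry4 is the gene whose groups separate, at 27.3 to 33.0 against 14.6 to 24.1 CPM.

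The effect of sex on the genotype difference in cartilage was tested for the 9 genes that passed the filter, with 2 libraries per sex and genotype. No gene passed in edgeR or DESeq2, beside 0.0114% of all genes in edgeR, and 1 had an unadjusted p under 0.05. That gene was Spry2, where the female difference was lower than the male one by 0.71 on the log2 scale (95% interval -1.28 to -0.14, adjusted p = 0.989). With so few libraries, the intervals are wide, from -1.90 to 1.26 for Spry1 and from -0.42 to 0.60 for Fgfr2.

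Between day 0 and day 3, BMP2 treatment, time in culture and the count table change together and cannot be told apart, and levels in the next sentences are CPM scaled over the 14 cultures. In control cultures 2 of the 10 genes rose and 3 fell, beside 28.1% and 28.8% of all genes (56.9% called), and 7 did not overlap between days, beside 64.0%. In cKO cultures 1 rose and 5 fell, beside 32.4% and 29.8% (62.2% called), and 6 did not overlap, beside 62.5%. Fgfr1 rose in controls from 152 ± 6.36 to 247 ± 53.5 CPM (log2 0.70, SE 0.140, adjusted p = 8.46e-04) and stood at 197 ± 3.12 and 223 ± 26.4 in cKO (log2 0.18, adjusted p = 0.277). Fgfr2 rose in both genotypes, from 283 ± 3.96 to 554 ± 48.4 CPM in controls (log2 0.97, adjusted p = 0.00133) and from 250.2 ± 5.34 to 469.7 ± 146 in cKO (log2 0.91, adjusted p = 0.00180). No day 3 culture but cKO replicate 4, at 255 CPM, fell near the day 0 range of this receptor. Fgfr3 was 991 ± 23.9 and 932 ± 243 CPM in controls (log2 -0.09, adjusted p = 0.814) and fell from 412 ± 42.3 to 240.4 ± 91.6 in cKO (log2 -0.78, SE 0.286, adjusted p = 0.0304). The cKO call on Fgfr3 was lost without day 0 cKO replicate 2 or 3 (adjusted p up to 0.0824) and the log2 fold change was -0.53 (adjusted p = 0.0127) without day 3 cKO replicate 4. Fgfr4 fell in cKO from 14.4 ± 2.36 to 3.37 ± 2.35 CPM (log2 -2.08, adjusted p = 0.00464; -1.68 without day 3 replicate 4). In controls it was 32.1 ± 1.89 and 17.0 ± 4.41 (log2 -0.92, adjusted p = 0.133), with all 4 day 3 cultures below day 0, and passed when day 3 cKO replicate 4 was left out of the shared fit (adjusted p = 2.26e-04).

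Spry1, Spry2 and Dusp6 fell between the days in both genotypes. Spry1 fell in controls from 2.34 ± 0.564 to 0.425 ± 0.105 CPM, 5.40-fold (log2 -2.43, SE 0.264, adjusted p = 6.65e-06), and in cKO from 5.48 ± 1.31 to 3.27 ± 0.457, 1.68-fold (log2 -0.75, SE 0.213, adjusted p = 0.00819). Its genotype difference was larger at day 3 than at day 0 by 1.69 on the log2 scale (SE 0.345, adjusted p = 0.00598), the only call among the 10 genes in that test, which called 16.8% of all genes (9.94% higher and 6.89% lower). Spry2 fell from 12.3 ± 1.42 to 6.12 ± 1.43 CPM in controls (log2 -1.0, adjusted p = 1.03e-04) and from 23 ± 1.78 to 16.9 ± 0.971 in cKO (log2 -0.45, adjusted p = 0.0163). The cKO calls on Spry1 and Spry2 were lost without day 0 cKO replicate 3 (adjusted p = 0.0549 and 0.0629). Dusp6 fell from 15.7 ± 1.32 to 5.54 ± 2.46 CPM in controls (log2 -1.51, adjusted p = 1.57e-04) and from 28.2 ± 3.06 to 12.9 ± 2.10 in cKO (log2 -1.13, adjusted p = 8.56e-04). Spry4 was 2.50 ± 0.0826 and 1.77 ± 0.639 CPM in controls (log2 -0.50, adjusted p = 0.411), all 4 day 3 cultures being below day 0, and 4.4 ± 0.289 and 4.71 ± 4.19 in cKO (log2 0.09, adjusted p = 0.877). Without day 3 cKO replicate 4 the cKO change of Spry4 was a fall (log2 -0.75, adjusted p = 0.0110), and so was that of Fgf2 (log2 -0.41, adjusted p = 0.0239), which stood at 48.8 ± 7.80 and 69.7 ± 65.9 CPM with it (log2 0.51, adjusted p = 0.359). In controls Fgf2 was 32.1 ± 1.61 and 30.5 ± 5.43 CPM (log2 -0.07, adjusted p = 0.912). Fgf18 was 0.488 ± 0.143 and 0.333 ± 0.178 CPM in controls (log2 -0.53, adjusted p = 0.372) and 0.603 ± 0.0672 and 0.784 ± 0.396 in cKO (log2 0.36, adjusted p = 0.479; -0.01, adjusted p = 0.977 without day 3 replicate 4). The genotype comparisons and the day changes use the same cultures.

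The wider pathway was described through 8 lists that exclude the 10 genes, whose medians are set beside a median log2 fold change of 0.01 over all genes tested in each genotype comparison. Their counts of calls stand beside 64.5% of all genes at day 0, 48.1% at day 3 and 6.19% in cartilage. A list named other feedback inhibitors of the ERK pathway (15 genes, 14 tested) had 13 higher and 1 lower in day 0 cKO cultures, with a median of 1.04. It also holds Rasa1, Nf1, Flrt2 and Flrt3, so its counts are not of feedback inhibitors alone. Flrt2 (log2 1.39) and Flrt3 (log2 1.04) were among the 13 higher. Dusp4, a nuclear ERK phosphatase, rose from 0.219 ± 0.0346 to 0.840 ± 0.196 CPM (log2 1.94, adjusted p = 3.28e-04) and Dusp1, an immediate early MAP kinase phosphatase, from 111 ± 5.51 to 369 ± 27.8 (log2 1.73, adjusted p = 3.67e-08), while Dusp7 fell (log2 -0.19, adjusted p = 0.00473). At day 3, 7 of 14 were higher and 0 lower, with a median of 0.71. That number of calls is close to the share of all genes called, of which 25.5% were higher and 22.6% lower among all tested. Dusp4 stood at 0.186 to 0.338 CPM in controls and 2.86 to 21.3 in cKO (log2 4.95, adjusted p = 0.00225; 3.64 without replicate 4), and Dusp1 at 4.8 to 7.25 and 62.9 to 184 (log2 4.01, adjusted p = 1.29e-04; 3.47 without it). Without that culture 7 were still called and the median was 0.37. In cartilage 0 of 10 tested passed in edgeR or DESeq2 (1 at an unadjusted p under 0.05), with a median of 0.06.

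Genes transcribed in response to FGF and ERK (13 genes, all tested in cultures) had 7 higher and 2 lower at day 0, with a median of 0.70. Fosl1, an AP-1 subunit, rose from 2.78 ± 0.0111 to 19.2 ± 4.09 CPM (log2 2.79, adjusted p = 6.19e-07) and Etv4, an ETS factor, from 1.38 ± 0.288 to 5.07 ± 0.948 (log2 1.88, adjusted p = 2.40e-05). The immediate early genes Fos (82.1 ± 5.71 to 28.5 ± 3.92 CPM, log2 -1.53, adjusted p = 1.08e-06) and Egr1 (log2 -0.31, adjusted p = 9.30e-05) fell. At day 3, 8 were higher and 0 lower, with a median of 1.44, and without replicate 4 the call count was 7 and the median 0.76. Fosl1 (log2 3.08, adjusted p = 1.97e-05) and Junb (11.8 ± 2.81 to 90.5 ± 8.08 CPM, log2 2.94, adjusted p = 7.62e-06) had the largest rises by the naming rule. In cartilage 1 of 12 tested was higher, the cyclin gene Ccnd1, from 39.3 ± 4.30 to 89.5 ± 6.05 CPM (log2 1.17, adjusted p = 5.59e-05), and the median was -0.07. Fos, at 1188 ± 270.2 and 1145 ± 352 CPM, did not pass the test in tissue (adjusted p = 0.866).

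**Figure D5:**
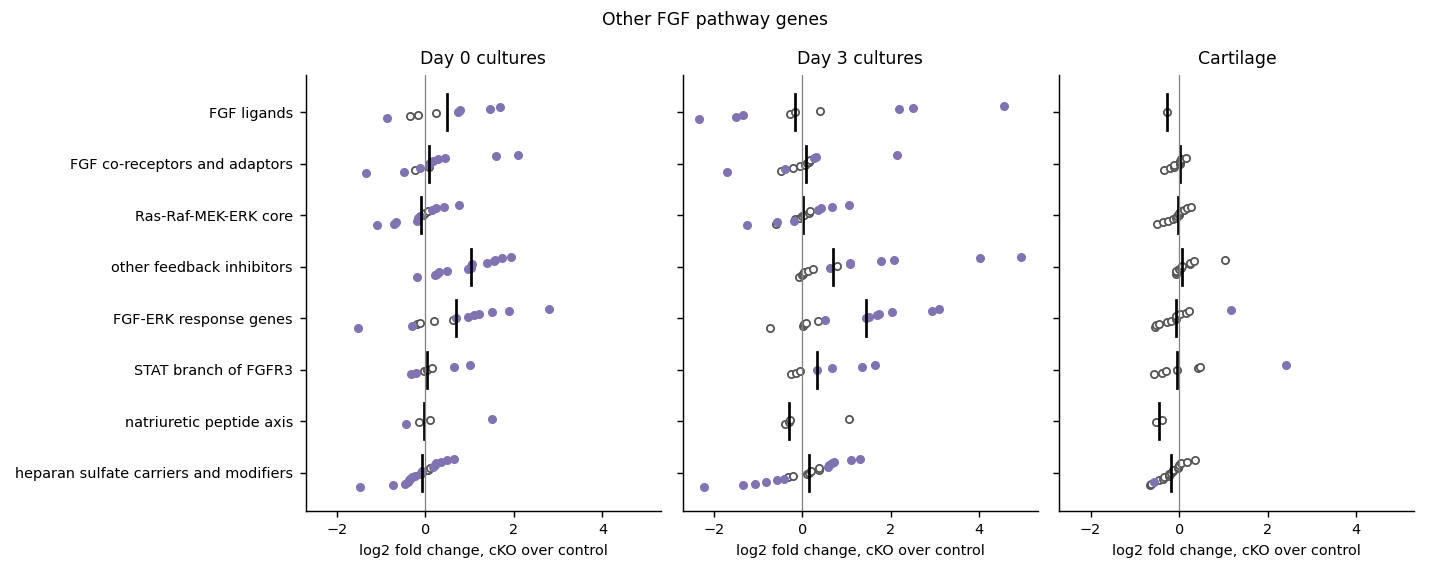
Log2 fold change of cKO over control (x axis) for the genes of 8 FGF pathway lists (rows) in day 0 cultures, day 3 cultures and cartilage; each point is a gene tested, filled where the adjusted p was under 0.05, and the black bar is the list's median. The list named other feedback inhibitors has medians of 1.04, 0.71 and 0.06 and that of the response genes 0.70, 1.44 and -0.07 in the 3 panels.

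A list of 20 further FGF family genes holds ligands and also the intracellular factors Fgf11, Fgf12, Fgf13 and Fgf14, so its counts are not of ligands alone. At day 0, 8 were tested, and 4 were higher, Fgf13 among them (log2 0.79, adjusted p = 1.91e-06), and 1 lower (median 0.49). Fgf7, a mesenchymal ligand of epithelial receptor forms, rose from 6.70 ± 1.30 to 21.7 ± 3.73 CPM (log2 1.69, adjusted p = 1.42e-05) and Fgf22 from 0.143 ± 0.0929 to 0.386 ± 0.164 (log2 1.46, adjusted p = 0.0345), while the hormone-like Fgf21 fell from 16.6 ± 1.47 to 9.11 ± 3.12 (log2 -0.87, adjusted p = 0.00378). At day 3, 3 were higher and 3 lower of 9 (median -0.16). Fgf7 was again higher, at 48.7 ± 9.46 against 222 ± 93.6 CPM (log2 2.19, adjusted p = 4.34e-04; 1.87 without replicate 4). The largest rises by the naming rule were Fgf1 (0.134 ± 0.127 to 3.20 ± 3.75 CPM, log2 4.55, adjusted p = 0.00632; 3.30 without replicate 4) and Fgf11 (log2 2.50, adjusted p = 0.00223; 2.78 without it), and the falls Fgf12 (log2 -2.34, adjusted p = 0.00741; -3.02 without it) and Fgf14 (log2 -1.49, adjusted p = 0.0421; -1.75 without it), the last 3 being intracellular FGF homologous factors that bind sodium channels. Without replicate 4, 4 were higher and 3 lower (median 0.06). In cartilage 1 ligand besides the members, Fgf1, passed the filter and was not called (adjusted p = 0.823).

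Among 14 co-receptors and adaptors, 7 of 13 tested were higher and 3 lower at day 0 (median 0.09). Fgfrl1, the kinase-less decoy receptor, fell with Fgfr3 and Fgfr4, from 315 ± 11.5 to 124 ± 9.13 CPM (log2 -1.34, adjusted p = 9.08e-08), and at day 3 from 428 ± 41.2 to 133 ± 46.2 (log2 -1.69, adjusted p = 9.98e-04; -1.47 without replicate 4). Sos2, a Ras exchange factor, rose at both days (log2 1.60 and 2.14, adjusted p = 4.62e-08 and 1.99e-06). Fgfbp1, a carrier that frees FGFs from matrix, rose at day 0 from 0.614 ± 0.0750 to 2.61 ± 0.602 CPM (log2 2.09, adjusted p = 2.77e-05), and Plcg1, a receptor substrate, fell (log2 -0.48, adjusted p = 3.13e-05). At day 3, 3 of 12 were higher and 2 lower (median 0.09), including the adaptors Grb2 (log2 0.32, adjusted p = 0.00270) and Gab1 (log2 -0.39, adjusted p = 0.0436; -0.28 without replicate 4). In cartilage 0 of 9 passed in edgeR or DESeq2, with 0 at an unadjusted p under 0.05. The Ras-Raf-MEK-ERK core (14 genes) had 4 higher and 7 lower at day 0 (median -0.10) and 4 and 3 at day 3 (median 0.01), the latter close to the share of all genes called. Within it the scaffold Ksr1 (log2 0.75, adjusted p = 0.00970, and 1.05, adjusted p = 0.0207; 0.75 at day 3 without replicate 4) rose at both days, while the ERK-activated kinase Rps6ka2 (log2 -1.09, adjusted p = 1.56e-06, and -1.25, adjusted p = 1.05e-04) and Araf (log2 -0.70, adjusted p = 2.71e-07, and -0.58, adjusted p = 1.91e-04) fell at both. Mapk3, which encodes ERK1, rose at day 0 (log2 0.43, adjusted p = 8.56e-05), and Map2k1, which encodes MEK1, rose at day 3 from 64.0 ± 4.19 to 103 ± 3.89 CPM (log2 0.68, adjusted p = 9.61e-05). In cartilage 0 of 12 core genes passed in edgeR or DESeq2 (1 at an unadjusted p under 0.05, median -0.03).

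Cdkn1a, a cell cycle inhibitor, rose at day 0 from 118 ± 3.57 to 237 ± 13.8 CPM (log2 1.0, adjusted p = 2.06e-07). At day 3 it was 573 ± 54.4 and 554 ± 35.9 (log2 -0.05, adjusted p = 0.702), and in cartilage 533 ± 76.0 and 748 ± 185 (log2 0.47, adjusted p = 0.0734). Stat3 (log2 -0.22, adjusted p = 0.00427) and the STAT inhibitor Socs3 (log2 -0.32, adjusted p = 0.00439) fell at day 0, and Socs3 rose at day 3 from 15.8 ± 3.71 to 40.4 ± 11.8 CPM (log2 1.35, adjusted p = 0.00299; 1.54 without replicate 4).

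Of the natriuretic peptide axis (5 genes), which opposes FGFR3 in the growth plate, 4 were tested in cultures. At day 0 Npr1 rose (0.505 ± 0.0554 to 1.45 ± 0.297 CPM, log2 1.51, adjusted p = 2.75e-04) and Npr2, the receptor for C-type natriuretic peptide, fell (133 ± 0.854 to 98.7 ± 4.61, log2 -0.43, adjusted p = 8.24e-06). At day 3, 0 passed in edgeR (2 at an unadjusted p under 0.05) and 2 were lower without replicate 4, among them Npr2 (log2 -0.34, adjusted p = 0.0250). In cartilage 0 of 2 passed in edgeR or DESeq2 (2 at an unadjusted p under 0.05 in edgeR). The heparan sulfate carriers and modifiers (19 genes) had 6 higher and 10 lower at day 0 (median -0.08), 6 and 6 at day 3 (median 0.15), and 0 higher and 1 lower of 17 in cartilage (median -0.18). Gpc3, a glypican, fell from 105 ± 12.7 to 37.6 ± 5.79 CPM at day 0 (log2 -1.48, adjusted p = 4.75e-06) and from 108 ± 35.9 to 23 ± 9.13 at day 3 (log2 -2.23, adjusted p = 0.00129; -1.98 without replicate 4), with Gpc6 (log2 -0.73 and -1.33, adjusted p = 2.10e-06 and 9.36e-05). Sdc1, a syndecan, and the sulfotransferase Ndst1 rose at day 0 (log2 0.64 and 0.50, adjusted p = 4.26e-07 and 2.04e-06). The largest day 3 rises by the naming rule, Sulf1 (log2 1.30, adjusted p = 0.0360; 0.61 without replicate 4) and Gpc1 (log2 1.1, adjusted p = 0.0422; 0.49 without it), were smaller without that culture. Sulf2, a sulfatase that trims heparan sulfate outside the cell, was the gene lower in cartilage, at 195 ± 18.6 against 132 ± 20.4 CPM (log2 -0.57, adjusted p = 0.0202). The chondrocyte marker list moved beside all of these: 11 of its 12 genes were lower at day 0 (median -1.77) and at day 3 (median -2.96; 12 of 12, median -2.59, without replicate 4), and 3 in cartilage (median -0.49).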

How the data were processed

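RNA was measured in 14 chondrocyte cultures (directional libraries from total RNA) and 8 cartilage samples (BRB-seq, barcoded 3′ libraries with molecular identifiers), per the labels' protocols. For the cultures the authors' tables hold estimated counts, which were rounded here, and for cartilage they hold both whole-number counts (used as main) and estimated counts (an alternative). The submitters' processing notes name build GRCm38 and, for cartilage, UMI-tools 1.1.1, Trim Galore 0.6.7, HISAT2 2.2.1, featureCounts 2.0.1 and DESeq2 1.34.0. The tool that counted the cultures, and whether counting used strand, are not given in the sources used here. Genotypes were compared within day 0, day 3 and cartilage (with sex as a covariate), and day changes and interactions in 1 fit of 14 cultures, with edgeR 4.0.16 (quasi-likelihood, TMM, filterByExpr with a minimum count of 10 and a total of 15) in R 4.3.3 and Benjamini-Hochberg adjustment over all genes. Standard errors were derived from the fold change and its F statistic, and 95% intervals are 1.96 SE. The 3 genotype comparisons were tested on simulated data; the day and interaction models, which use the same code, were not. CPM were scaled within each setting, and exon lengths came from GENCODE, which held 34582 of 34866 culture and 23884 of 23911 cartilage identifiers. Gene positions and promoters came from RefSeq on GRCm38.p6. All 10 genes are named in every comparison. From each pathway list, up to 2 called genes per direction and genotype comparison with the largest log2 fold change are named, and the 3 genes most like each receptor (log2 of CPM + 0.5). The members and lists were chosen with earlier results of these data known. DESeq2 1.42.0, RLE factors, no filter, a replicate block, a shared fit, no sex term and leaving out each library were tried, and lists without day 3 cKO replicate 4 were added after seeing the data. Precision follows the depths given above, and molecules read by PCR are not all independent. One gene of the pathway lists, and the counts of its list, are not reported here.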

Additional observations from a re-analysis of the deposited data

Results flagged for a closer look

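Dixon's 95% limit for the gap over the range is passed by chance in about 1 in 20 groups. All the FGF genes were screened in the groups of 4, so some values would pass by chance alone. An excess over chance was not tested, so the number of passes is no result about these genes. In groups of 4, 3 values of the FGF genes stood further from the rest of their group than this limit. Fgf2 (179 CPM, ratio 0.936) and Spry4 (11.6 CPM, ratio 0.887) did so in day 3 cKO replicate 4, whose chondrocyte marker sum of 1274 CPM was also the lowest of the cultures. Fgf18 did so in day 3 control replicate 4 (0.0676 CPM, ratio 0.936), which is 1 count.

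The genotype effect differed between day 0 and day 3, by the interaction term of the 14-culture fit, for Spry1 by 1.69 on the log2 scale (adjusted p = 0.00598). It also differed for 15 of the pathway genes named above, and list genes outside the naming rule were called too. The term called 16.8% of all genes. The named genes were picked for large genotype effects in these same cultures, which favours a difference between days, so the 15 is no result about the lists. Higher at day 3 than at day 0 were the effects on Fgfbp1 (6.68), Fgf1 (3.82; 2.60 without day 3 cKO replicate 4), Fos (2.95), Dusp1 (2.25; 1.74 without it), Fgf11 (2.24), Junb (1.71), Socs3 (1.65), Map2k1 (0.80), Stat3 (0.54) and Sos2 (0.53). Lower were those on Fgf12 (-2.20; -2.87 without day 3 cKO replicate 4), Ccnd1 (-1.53), Cdkn1a (-1.07), Sulf2 (-0.77) and Gpc6 (-0.62). Fos fell in the cKO at day 0 (log2 -1.53) and rose at day 3 (1.44). Ccnd1, which rose at day 0 (1.51), was 378 ± 50.1 and 381 ± 44.0 CPM at day 3 and rose in cartilage (1.17). Fgfbp1 had 0 CPM in all 4 day 3 control cultures and 0.404 to 2.66 in the cKO on the 14-culture scale, so its fitted value (adjusted p = 0.0179) depends on the prior count and is no bound.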

How the results depend on the processing

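At day 0, 9 of the 10 genes were called in each fit that left out 1 culture. Fitting all 14 cultures together gave 4 calls at day 0 (Fgfr3, Spry1, Spry2 and Dusp6) and 8 at day 3, where Fgf2 (1.19, adjusted p = 0.0341), Spry4 (1.41, adjusted p = 0.0212) and Fgf18 passed as well; the cause was not tested. In cartilage 0 were called with DESeq2 and 0 on the estimated counts. DESeq2 gave 3 for the interaction, adding Spry2 (0.56, adjusted p = 0.0342) and Fgfr1 (-0.52, adjusted p = 0.0494), gave no adjusted p for Fgf2 at day 3 and called Spry4 there (1.45, adjusted p = 0.0292). Leaving out each library in turn gave 4 to 5 calls at day 3, 0 to 1 in cartilage, 5 to 6 for the control day change, 3 to 8 for the cKO day change, 1 to 3 for the interaction with day and 0 for that with sex. For single genes, 934 alternatives left direction and call as they were, 11 gained a call in the same direction, 25 lost one and 30 changed sign. No value that changed sign had been called, and 2 passed the test once turned, those of Spry4 and Fgf2 in the cKO day change without day 3 cKO replicate 4.

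Deviations of same-numbered samples from their group means had correlations of -0.215 to 0.265 between genotypes or days. With so few libraries per group these values cannot decide whether the numbers pair samples, and the main fits assumed no pairing. With the replicate number as a block, 9, 5 and 0 genes were called at day 0, day 3 and in cartilage, 6 and 5 for the control and cKO day changes and 1 for the interaction. The block turned the signs of Fgfr3 in the control day change (0.07) and of Spry4 (-0.55) and Fgf2 (-0.07) in the cKO day change. Signs also turned for Fgf2 in cartilage on the estimated counts (-0.05) and for the Dusp6 sex interaction with no filter (-0.02).

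Where leaving out a library turned a sign, the log2 fold changes ran from -0.25 to 0.00 for Fgfr1 at day 3, and in cartilage from -0.10 to 0.22 for Fgf2 and from -0.29 to 0.34 for Spry1. In the control day change they ran from -0.16 to 0.03 for Fgf2 and from -0.26 to 0.05 for Fgfr3. In the cKO day change they ran from -0.75 to 0.31 for Spry4, from -0.01 to 0.57 for Fgf18 and from -0.41 to 0.74 for Fgf2. The interaction with day ran from -0.24 to 0.83 for Spry4, from -0.18 to 0.15 for Fgfr2 and from -0.33 to 0.83 for Fgf2, and that with sex from -0.22 to 0.32 for Dusp6, from -1.24 to 0.69 for Spry1 and from -0.04 to 0.20 for Fgfr2. Depth limits Fgf18 in cultures and Fgfr4 and Spry1 in cartilage, which rest on few counts.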
